A study of Mus musculus with 12 samples.

Results

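The genes described here are choline dehydrogenase, *Chdh*, and 8 other genes that carry choline into cells or through its 2 main metabolic fates, 9 of the 15651 genes in the expression table. *Chdh* was chosen because its transcript had one of the largest falls under the p300/CBP inhibitor CCS1477, and the other 8 were chosen by name as genes of the same pathway. They are the transporters *Slc44a1* and *Slc44a2*, the kinases *Chka* and *Chkb*, *Pcyt1a*, which makes CDP-choline, the phosphotransferases *Chpt1* and *Cept1*, and the betaine aldehyde dehydrogenase *Aldh7a1*. RNA was sequenced from c-Kit enriched leukemic splenocytes of moribund mice, 3 of genotype Dnmt3a fl/fl, Flt3 ITD/ITD, Mx1Cre (*D/F* AML) and 3 of genotype Tet2 fl/fl, Flt3 ITD/ITD, Mx1Cre (*T/F* AML). Both groups therefore carried the internal tandem duplication of *Flt3* and the Cre, and Cre was active without an inducer, so the number of floxed alleles lost can vary between leukemias. Cells of each mouse were cultured with SCF, IL6 and IL3 and split between CCS1477 and an equal volume of DMSO, and RNA was taken 6 hours later, so that 12 libraries make up 4 groups of 3. *D/F* cells received 4 μM and *T/F* cells 2 μM. Genotype and dose cannot be told apart in any difference between the responses. CCS1477 binds the bromodomains of p300 and CBP, paralogous histone acetyltransferases that act as coactivators of transcription.

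Choline is a quaternary amine taken up by cells through choline-like transporters. In the Kennedy pathway it is phosphorylated by choline kinase, activated with CTP and joined to diacylglycerol to make phosphatidylcholine, the most abundant phospholipid of most mammalian membranes. In mitochondria it is instead oxidized by choline dehydrogenase and then by a betaine aldehyde dehydrogenase to betaine, a methyl donor that feeds the methionine cycle and an osmolyte. The betaine route is best known from liver and kidney.

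Values are TPM, a share of all transcript abundance in a library that is already corrected for transcript length, so levels can be compared between genes. A TPM in bulk RNA cannot tell fewer cells of a type from less RNA per cell. Libraries of a group correlated at 0.947 to 0.983 in *D/F* and 0.978 to 0.991 in *T/F*. Of the targeted genes, *Dnmt3a* did not mark the genotypes by TPM, with DMSO values of 29.3 to 55.7 in *D/F* and 39.9 to 53.9 in *T/F*. DMSO values of *Tet2* did not overlap and were lower in *T/F*, at 38.3 to 43.4 in *D/F* and 30.0 to 35.8 in *T/F*. *Kit* and the 6 other myeloid progenitor markers examined were in the table, as were all 6 mature neutrophil markers (*Ltf*, *Camp*, *Ngp*, *S100a8*, *S100a9*, *Mmp8*). *D/F* replicate 2 stood apart in both treatments, with summed neutrophil markers of 2654 and 1626 TPM against 6244 to 9360 TPM in the other *D/F* libraries, and *T/F* replicate 3 had 2323 and 2488 TPM against 5169 to 7127 TPM in the other *T/F* libraries. With CCS1477 the summed progenitor markers went from 3625 to 10020 TPM down to 802 to 4275 TPM in *D/F* cells, where they overlapped. In *T/F* they went from 4151 to 6377 TPM down to 1665 to 3002 TPM. The granule genes *Mpo*, *Elane*, *Prtn3* and *Ctsg* made up most of these sums. With DMSO, *D/F* replicate 2 had the lowest *D/F* sum but the highest *Kit* (149 TPM against 50.5 and 60.9 TPM). It also had the highest *Cd34* (447 TPM against 110 and 138 TPM) and *Flt3* (46.0 TPM against 9.86 and 25.9 TPM). The 4 of 5 macrophage markers in the table were also lower with CCS1477, at 16.0 to 22.3 against 2.72 to 4.31 TPM summed in *D/F* and at 19.3 to 32.1 against 5.93 to 12.3 TPM in *T/F*, with *C1qa* not in the table. Summed T cell markers (4 of 6 in the table, without *Cd3e* and *Cd3g*) were at 14.5 to 27.4 TPM and erythroid markers (6 of 7) at 10.8 to 31.9 TPM over all libraries. Megakaryocyte and platelet markers (4 of 4) went from 34.9 to 212 TPM down to 20.1 to 65.4 TPM in *D/F* cells. They overlapped there only through replicate 2, which was at 212 TPM with DMSO and 65.4 TPM with CCS1477. In *T/F* they went from 49.4 to 56.6 TPM down to 32.7 to 35.2 TPM. Of 4 stromal and endothelial markers only *Pecam1* was in the table, without *Col1a1*, *Col1a2* and *Cdh5*. *Pecam1* was at 92.8 to 149 TPM with DMSO and 18.9 to 24.6 TPM with CCS1477 in *D/F*. In *T/F* it was at 56.2 to 71.5 TPM against 15.1 to 21.7 TPM. This 1 gene alone does not show that stromal or endothelial cells were present. The 1 of 3 NK cell markers in the table reached at most 8.54 TPM with DMSO and 0.461 TPM with CCS1477. The part of these shifts in the results below was not tested.

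*Chdh*, which oxidizes choline to betaine aldehyde in mitochondria, nearly disappeared from the libraries treated with CCS1477. In *D/F* it stood at 36.3, 33.7 and 30.2 TPM in the DMSO libraries of replicates 1 to 3 and at 0.829, 0.344 and 0.515 TPM in the CCS1477 libraries of the same mice. In *T/F* the DMSO libraries held 26.9, 19.2 and 15.2 TPM and the CCS1477 libraries 0.574, 0.769 and 0.451 TPM. Every DMSO library was above 15 TPM and every CCS1477 library was below 1 TPM, in 6 of 6 mice. The transcript left after CCS1477 was 1.67% ± 0.631 of the DMSO level in *D/F* (SD, n = 3, range 1.02% to 2.28%) and 3.04% ± 0.932 in *T/F* (SD, n = 3, range 2.14% to 4.00%), so single mice fell between 43.8-fold and 97.9-fold in *D/F* and between 25.0-fold and 46.8-fold in *T/F*. On the log2(TPM + 1) scale *Chdh* changed by −4.47 in *D/F* cells and by −3.71 in *T/F* cells on average. That scale understates falls that end below 1 TPM, and with a pseudocount of 0.01 in place of 1 the same means were −5.95 and −5.06. Because this contrast chose the gene, these values are a description and no test of them is given.

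**Figure D1:**
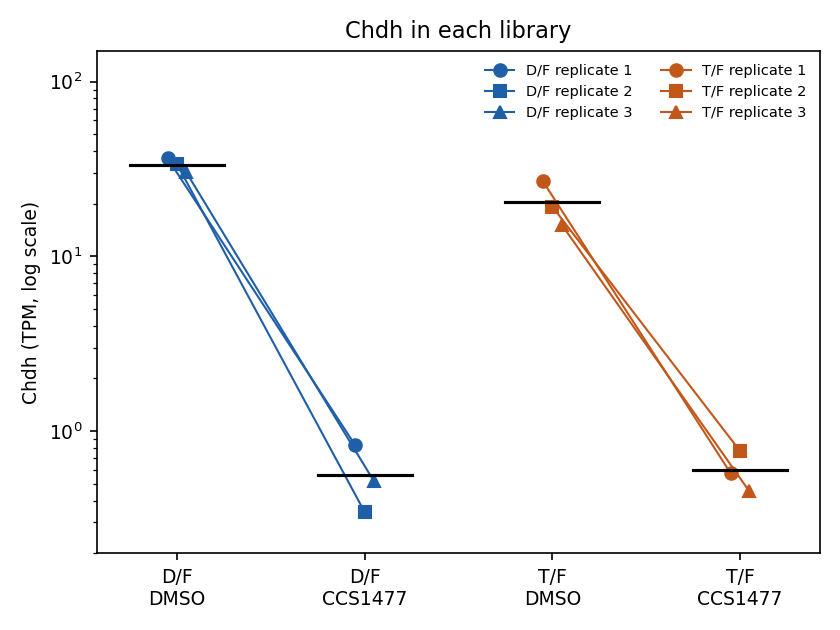
*Chdh* in TPM on a logarithmic axis in each of the 12 libraries, with a line joining the DMSO and CCS1477 cells of 1 mouse and a black bar for the mean of each group of 3. The 6 DMSO libraries lie between 15.2 and 36.3 TPM and the 6 CCS1477 libraries between 0.344 and 0.829 TPM.

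By the size of its fall *Chdh* ranked 5 of 15501 genes in *D/F*, between *Muc13* (−4.49) and *Thbs1* (−4.29) on the log2(TPM + 1) scale, and 3 of 15256 in *T/F*, between *Tcrg-C1* (−3.94) and *Thbs1* (−3.45). These ranks restate the rule that chose it and support nothing further. Without drug, *Chdh* was higher in *D/F* (33.4 ± 3.07 TPM, SD, n = 3) than in *T/F* (20.4 ± 5.94 TPM), and the ranges did not overlap. The difference of 0.72 on the log2 scale is given with no test, since these libraries are 1 arm of the fall that chose the gene. With CCS1477 the genotypes overlapped, at 0.563 ± 0.246 TPM in *D/F* and 0.598 ± 0.160 TPM in *T/F*. The order of the 4 groups was thus *D/F* DMSO, *T/F* DMSO, then both CCS1477 groups, which did not differ beyond their spread. The percentages left in the single mice of the genotypes overlapped as well.

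*Chdh* lies on the forward strand at chr14:30009023-30040527 (GRCm38). The start of *Il17rb*, an interleukin receptor gene on the other strand, is 127 bases away, so the bases between the 2 starts lie upstream of both. *Il17rb* was at 2.46, 7.21 and 2.75 TPM with DMSO and 1.45, 2.89 and 1.72 TPM with CCS1477 in *D/F*, and at 1.76, 2.06 and 3.09 TPM against 1.88, 2.40 and 2.46 TPM in *T/F*. These groups overlapped in both genotypes, but *Il17rb* was lower with CCS1477 in 3 of 3 *D/F* mice. In *D/F* cells the log2 difference of −0.68 was not called by limma (SE 0.37, adjusted p = 0.274) and was called once the mouse was a block (SE 0.16, adjusted p = 0.0356). In *T/F* cells it was not called (adjusted p = 0.974, and 0.952 with the block). *Chdh* shares 589 exon bases with *Cacna1d* on the opposite strand, a gene that is not in the table. Whether strand was used in the quantification is not given in the sources used here, so reads from such shared bases cannot be assigned with certainty. The same limit holds for other members whose opposite-strand partners are in the table. *Aldh7a1* shares 300 exon bases with *Phax* (mean 26.8 TPM in *D/F* with DMSO) and *Cept1* shares 771 with *Dennd2d*. *Chpt1* shares 660 with *Sycp3*, *Chkb* 320 with *C730034F03Rik*, *Slc44a1* 310 with *1700060J05Rik* and *Chka* 74 with *Gm16066*.

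Members that moved in both directions are shown by the bases before their first start that lie outside exons of protein-coding genes (RefSeq, GRCm38.p6, 5′ to 3′ on the strand of the gene), *Chdh* and *Slc44a2* for those that were lower with CCS1477 and *Chka* and *Chpt1* for those that were higher. Capitals mark GGGCGG (a GC box) and CCAAT on either strand.
Chdh, chr14:30008897-30008999: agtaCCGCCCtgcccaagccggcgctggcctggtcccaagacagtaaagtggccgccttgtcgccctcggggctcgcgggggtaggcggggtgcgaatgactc
Slc44a2, chr9:21320469-21320697: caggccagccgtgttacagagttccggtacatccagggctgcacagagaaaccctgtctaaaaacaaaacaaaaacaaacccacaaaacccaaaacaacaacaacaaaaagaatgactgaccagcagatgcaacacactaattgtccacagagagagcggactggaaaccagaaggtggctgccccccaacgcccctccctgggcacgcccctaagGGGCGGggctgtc
Chka, chr19:3851523-3851772: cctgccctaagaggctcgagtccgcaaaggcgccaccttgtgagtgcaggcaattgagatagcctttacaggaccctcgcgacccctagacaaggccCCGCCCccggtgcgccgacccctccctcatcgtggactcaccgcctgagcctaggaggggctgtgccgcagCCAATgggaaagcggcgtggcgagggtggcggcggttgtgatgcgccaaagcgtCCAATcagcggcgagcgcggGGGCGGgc
Chpt1, chr10:88504074-88504220: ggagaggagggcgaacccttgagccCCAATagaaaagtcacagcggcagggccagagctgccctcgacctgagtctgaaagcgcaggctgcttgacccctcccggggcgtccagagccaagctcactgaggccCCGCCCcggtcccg
In the full windows of 250 bases before the first start, *Chdh* has 2 GC boxes and *Slc44a2* has 1, neither with the other motif, *Chka* has 2 of each, and *Chpt1* has 5 GC boxes and 1 of the other. *Slc44a1*, which was higher with CCS1477 like *Chka* and *Chpt1*, has 3 GC boxes and 0 of the other motif, *Chkb* has 1 and 2, *Pcyt1a* 2 and 0, and *Cept1* 1 and 0. The window of a later start of *Slc44a2* holds 0 GC boxes and 1 CCAAT. Of 32851 mouse windows of this length, 32.7% hold a GC box and 33.8% the other motif. Of the 9 genes, 8 have windows in the RefSeq table used, 16 windows in all since some have several starts, and 0 of the 16 hold CACGTG (in 6.02% of all windows) or TGACTCA (in 4.46%) on either strand. No GC box overlaps a CCAAT in these windows. In *Slc44a1* and *Pcyt1a* 2 GC boxes share bases with each other and are counted separately. *Aldh7a1* is not in the table of windows. These matches describe the letters in the windows.

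The plasma membrane and mitochondrial choline transporter *Slc44a1* (chr4:53440413-53622478) had the largest rise of the 8 other members in both genotypes on the log2 scale. It stood at 4.07, 15.3 and 5.84 TPM in the DMSO libraries of *D/F* and at 14.2, 27.5 and 15.5 TPM with CCS1477. In *T/F* it went from 5.46, 8.42 and 11.4 TPM to 17.9, 18.5 and 23.3 TPM. It was higher with CCS1477 in 6 of 6 mice, by 1.80-fold to 3.50-fold, and only *D/F* replicate 2, high in both treatments, made the *D/F* groups overlap. In *T/F* the rise was called by limma (log2 1.19, SE 0.25, adjusted p = 0.0123, and 0.0954 without replicate 2). In *D/F* the difference of 1.22 (SE 0.47) was not called (adjusted p = 0.142), but was once the mouse was a block (0.0124) and without replicate 2 (0.0195).

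*Slc44a2* (chr9:21320698-21355028), a second choline-like transporter and the more abundant of the pair in every library, moved the other way. It was at 91.4, 82.5 and 101 TPM with DMSO and 55.9, 44.0 and 50.5 TPM with CCS1477 in *D/F*. The *T/F* libraries held 101, 99.4 and 115 TPM with DMSO and 62.5, 65.7 and 66.5 TPM with CCS1477. Groups did not overlap in either genotype, and *Slc44a2* fell in both by limma, by 0.86 (SE 0.16, adjusted p = 0.0261) in *D/F* and by 0.69 (SE 0.08, adjusted p = 0.00183) in *T/F* on the log2 scale. Its *D/F* call was lost without replicate 1 (adjusted p = 0.221) or replicate 3 (0.296), when 0 of all genes passed (lowest adjusted p 0.0771 and 0.172, with 2494 and 2330 genes at an unadjusted p under 0.05). The ratio of *Slc44a2* to *Slc44a1* TPM was 5.40 to 22.5 in the 6 DMSO libraries and 1.60 to 3.92 in the 6 CCS1477 libraries.

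Both choline kinases, which commit choline to phosphatidylcholine, were higher with CCS1477 in 6 of 6 mice. *Chka* (chr19:3851773-3894369) was at 53.9, 85.7 and 50.1 TPM with DMSO and 78.9, 134 and 81.1 TPM with CCS1477 in *D/F*, and at 45.8, 52.6 and 59.2 TPM against 70.7, 68.8 and 72.1 TPM in *T/F*. The *D/F* groups overlapped through replicate 2 and the *T/F* groups did not. By limma *Chka* rose in *T/F* (log2 0.43, SE 0.10, adjusted p = 0.0196), a call lost without replicate 1 (0.0991) or replicate 2 (0.124). The *D/F* difference of 0.62 (SE 0.30) gave an adjusted p of 0.219, 0.0117 once the mouse was a block, and 0.0301 without replicate 2. Within each mouse the ratio to DMSO was close, 1.46-fold to 1.62-fold in *D/F* and 1.22-fold to 1.55-fold in *T/F*.

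*Chkb* (chr15:89426360-89429908) stood at 51.8, 65.0 and 36.8 TPM with DMSO and at 81.0, 110.0 and 71.2 TPM with CCS1477 in *D/F*. In *T/F* it stood at 48.5, 48.1 and 46.8 TPM with DMSO and at 73.1, 79.7 and 79.0 TPM with CCS1477. Groups did not overlap in either genotype, and the mice gave ratios of 1.51-fold to 1.93-fold. The rise was called in *T/F* (limma, log2 0.68, SE 0.06, adjusted p = 0.000929). For *D/F* the difference was 0.77 (SE 0.27), with an adjusted p of 0.110, 0.0105 once the mouse was a block, and 0.0602 without replicate 2. *Chkb* shares 1552 exon bases on the same strand with the readthrough gene *Gm44502*, which is not in the table, so its level is uncertain to that extent. The 2 kinases together came to 86.9 to 151 TPM with DMSO and 144 to 244 TPM with CCS1477, and *Chdh* went from 0.143 to 0.347 of that sum down to 0.00141 to 0.00518.

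*Pcyt1a* (chr16:32430921-32475070), whose enzyme makes CDP-choline in the regulated step of the Kennedy pathway, was not called in either genotype or over both (over both, log2 −0.13, adjusted p = 0.243, although rescaling to a common median gave −0.20 and 0.0402). It was at 58.7, 72.1 and 57.8 TPM with DMSO and 52.1, 59.8 and 47.2 TPM with CCS1477 in *D/F*, lower in 3 of 3 mice with overlapping groups (log2 −0.24, SE 0.17, limma adjusted p = 0.386, and 0.0905 with the mouse as a block). In *T/F* it was at 54.9, 53.1 and 50.3 TPM against 49.0, 52.5 and 54.0 TPM, with a 95% interval of the log2 difference from −0.20 to 0.14.

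The last step of the Kennedy pathway can be run by the choline phosphotransferase *Chpt1* or by the choline/ethanolamine phosphotransferase *Cept1*. *Chpt1* (chr10:88452745-88504073) went from 30.5, 26.9 and 24.9 TPM to 45.9, 59.2 and 42.0 TPM in *D/F* cells and from 30.3, 31.4 and 27.7 TPM to 40.9, 35.5 and 43.9 TPM in *T/F*. It did not overlap between treatments in either genotype and rose in both by limma, by a log2 difference of 0.81 (SE 0.18, adjusted p = 0.0406) in *D/F* and 0.41 (SE 0.10, adjusted p = 0.0192) in *T/F*. The *D/F* call was lost without replicate 1 (0.246) or replicate 3 (0.285), and the *T/F* call without replicate 1 (0.124) or replicate 3 (0.0961). *Cept1* (chr3:106502260-106547802) was at 38.5 to 51.9 TPM with DMSO and 41.5 to 48.6 TPM with CCS1477 in *D/F*, and at 43.4 to 51.8 TPM against 43.5 to 44.6 TPM in *T/F*. Its groups overlapped, and the 95% intervals of its log2 difference ran from −0.40 to 0.42 in *D/F* and from −0.32 to 0.08 in *T/F*. *Chpt1* was at 0.582 to 0.699 of the *Cept1* level in the DMSO libraries and at 0.817 to 1.22 of it in the CCS1477 libraries.

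*Aldh7a1* (chr18:56509687-56572951) encodes an aldehyde dehydrogenase that converts betaine aldehyde, the product of *Chdh*, to betaine, and also acts in lysine breakdown. With DMSO it stood at 14.8, 17.5 and 13.2 TPM in *D/F*, and with CCS1477 at 19.2, 21.5 and 15.8 TPM. The *T/F* values were 11.9, 11.6 and 11.6 TPM with DMSO and 16.9, 13.9 and 15.8 TPM with CCS1477. It was higher in 6 of 6 mice, by 1.20-fold to 1.43-fold, and the groups overlapped in *D/F* only. The rise was called in *T/F* (limma, log2 0.38, SE 0.08, adjusted p = 0.0134, lost without replicate 1 at 0.0925 or replicate 3 at 0.0854) and not in *D/F* (0.29, SE 0.18, adjusted p = 0.332, and 0.0566 with the mouse as a block). With DMSO *Aldh7a1* was below *Chdh*, at 0.407 to 0.764 of its TPM, and with CCS1477 it was 18.1-fold to 62.4-fold above it.

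**Figure D2:**
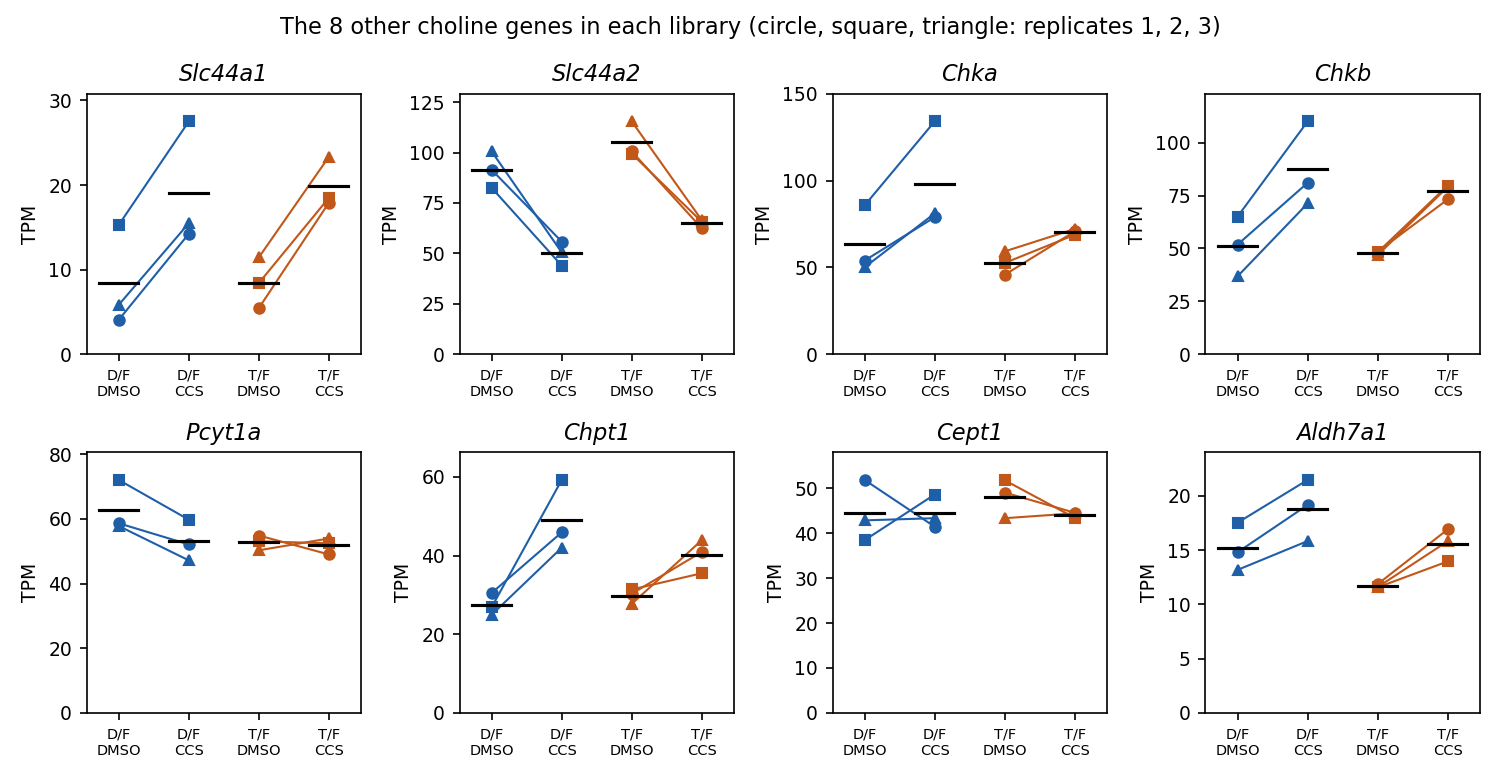
TPM of the 8 other choline genes in each library, 1 panel a gene with its axis from 0, with *D/F* in blue and *T/F* in orange, a line for the DMSO and CCS1477 cells of each mouse and a black bar for the group mean. *Slc44a2* is lower with CCS1477 in all 6 mice, and *Slc44a1*, *Chka*, *Chkb*, *Chpt1* and *Aldh7a1* are higher in all 6. *D/F* replicate 2 (square) is the highest *D/F* library for *Slc44a1*, *Chka*, *Chkb*, *Pcyt1a* and *Aldh7a1* in both treatments.

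Leaving out *Chdh*, 1 of the 8 genes rose and 1 fell in *D/F*, where 11.6% of 15501 genes passed, 5.14% as higher and 6.51% as lower. Once the mouse was a block 4 rose and 1 fell, where 39.3% of all genes passed. In *T/F* 5 of 8 rose and 1 fell, where 43.4% of 15256 genes passed, 25.8% as higher and 17.6% as lower. Over both genotypes, 6 libraries against 6 with genotype as a covariate, the counts were also 5 and 1, where 45.3% of 15583 genes passed, 25.8% as higher and 19.6% as lower. In that comparison the log2 differences were 1.20 for *Slc44a1* (SE 0.28, adjusted p = 0.00439), −0.77 for *Slc44a2* (SE 0.08, adjusted p = 3.43e-05) and 0.73 for *Chkb* (SE 0.14, adjusted p = 0.00125). *Chpt1* rose by 0.61 (SE 0.11, adjusted p = 0.00113), *Chka* by 0.52 (SE 0.16, adjusted p = 0.0211) and *Aldh7a1* by 0.34 (SE 0.09, adjusted p = 0.0119). The calls of *Chka* and *Aldh7a1* were lost without *T/F* replicate 1 (0.0685 and 0.0537), that of *Chka* also without *T/F* replicate 2 (0.0527) and that of *Aldh7a1* without *T/F* replicate 3 (0.0521). All 6 calls held without *D/F* replicate 2. In a fit with 1 estimate of the spread over all 12 libraries, 4 of the 8 passed in *D/F* (*Slc44a1*, *Slc44a2*, *Chkb*, *Chpt1*) where 31.9% of all genes passed, and 2 in *T/F* (*Slc44a2*, *Chkb*), where 24.3% did. The TPM of the treatments did not overlap for 3 of the 8 in *D/F*, where 36.6% of all genes did not overlap, and for 6 of the 8 in *T/F*, where 56.1% did not. The 8 genes had median log2 differences of 0.46 (*D/F*) and 0.40 (*T/F*), against 0.06 and 0.07 over all genes tested. With 8 genes, and so many genes called, nothing particular to the pathway follows from these counts.

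**Figure D3:**
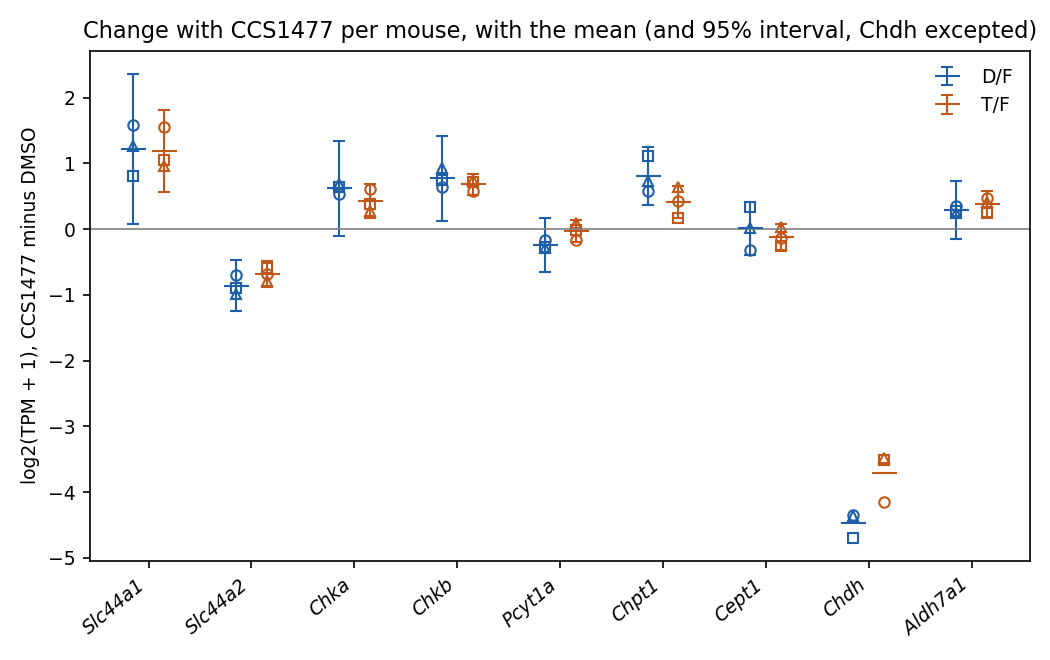
Change with CCS1477 on the log2(TPM + 1) scale for the 9 genes, with open symbols for single mice (circle, square and triangle for replicates 1, 2 and 3), a bar for the mean of 3 mice, and the 95% interval from limma for all but *Chdh*, which was chosen on this contrast. The interval comes from the fit without the mouse. It therefore includes differences in level between mice and does not measure the spread of the plotted changes. *Chdh* lies at −4.47 in *D/F* and −3.71 in *T/F*, while the means of the other 8 lie between −0.86 and 1.22.

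*Chdh* was left out of the tests between genotypes, because its values in both treatments went into its choice. In the test of the difference between the responses 0 of the 8 other genes passed by limma, as did 0.00% of 15583 genes, and 0 of the 8 were at an unadjusted p under 0.05. The T/F response minus the D/F response ran from −0.39 (*Chpt1*, 95% interval −0.84 to 0.06) to 0.21 (*Pcyt1a*, −0.16 to 0.59) on the log2 scale, and the widest interval, that of *Slc44a1*, reached from −1.33 to 1.27. These intervals are from the fit without the mouse. With the mouse as a block the SE of *Slc44a1* was 0.25 in place of 0.58, and again 0 of the 8 passed. Under DMSO 0 of the 8 passed between genotypes by limma, where 0.0328% of 15265 genes passed, and *Aldh7a1* (log2 0.34 higher in *D/F*, SE 0.13, adjusted p = 0.769) was the 1 gene of the 8 at an unadjusted p under 0.05. The DMSO ranges of 2 of the 8 did not overlap between genotypes, *Pcyt1a* and *Aldh7a1*, both higher in *D/F*, where 12.6% of all genes did not overlap. These comparisons share their DMSO libraries with the drug comparisons.

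The 9 genes together summed to 362 to 505 TPM, 362 to 437 TPM with DMSO and 367 to 505 TPM with CCS1477. *Chdh* made up 7.70% to 9.23% of the sum in *D/F* and 3.98% to 7.20% in *T/F* with DMSO. With CCS1477 it made up 0.0681% to 0.213% in *D/F* and 0.113% to 0.203% in *T/F*. Ordered by mean TPM in *D/F* cells with DMSO, the members ran from *Slc44a2* (91.5 ± 9.02) through *Chka* (63.2 ± 19.6), *Pcyt1a* (62.9 ± 8.00), *Chkb* (51.2 ± 14.1), *Cept1* (44.4 ± 6.84), *Chdh* (33.4 ± 3.07), *Chpt1* (27.4 ± 2.82) and *Aldh7a1* (15.2 ± 2.20) to *Slc44a1* (8.40 ± 6.03; all SD, n = 3). The means of *Chka* and *Pcyt1a* differed by less than their spread. After CCS1477 *Chdh* was the lowest of the 9 in every library.

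Over the 12 libraries the genes whose log2(TPM + 1) ran most like that of *Chdh*, among 11603 with a mean of at least 5 TPM, were *Dio2* (Pearson r 0.998), *Nav2* (0.997), *Tnfrsf21* (0.993), *Atg9b* (0.993), *Tut1* (0.992), *Emilin1* (0.989), *Cebpa* (0.989), *H6pd* (0.989), *H13* (0.987) and *Ampd2* (0.987). *Dio2*, a deiodinase that activates thyroid hormone, went from a mean of 18.8 to 0.518 TPM in *D/F* cells and from 10.7 to 0.625 TPM in *T/F*. *Cebpa*, a myeloid transcription factor, went from 136 to 55.7 TPM and from 112 to 50.8 TPM, and *H6pd*, a glucose-6-phosphate dehydrogenase of the endoplasmic reticulum, from 48.5 to 28.7 TPM and from 46.9 to 28.4 TPM. By their means all 10 were lower with CCS1477 in both genotypes and higher in *D/F* than in *T/F* with DMSO, as *Chdh* was. That order follows largely from choosing them by r with *Chdh* in the same libraries. The r values describe 12 libraries from 6 mice in which 1 treatment step sets most of the spread. Among the members r with *Chdh* was 0.87 for *Slc44a2* and 0.50 for *Pcyt1a*, and −0.88 for *Chpt1*, −0.84 for *Chkb*, −0.82 for *Slc44a1*, −0.65 for *Chka* and −0.59 for *Aldh7a1*, with 0.18 for *Cept1*.

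A wider list of 66 genes of choline, betaine, phosphatidylcholine and sphingomyelin metabolism had 53 in the table. Of these, 3 rose and 6 fell in *D/F* (limma, 53 tested), and 10 rose and 12 fell in *T/F* (52 tested). These shares of 17.0% and 42.3% stand beside 11.6% and 43.4% of all genes. Once the mouse was a block 11 rose and 11 fell in *D/F*, where 39.3% of all genes passed, and 13 rose and 18 fell in *T/F*, where 54.1% did. The same shares of all genes are the background for each of the shorter lists that follow. The *D/F* count was 16 without replicate 2 and 0 without replicate 1 or replicate 3. The *T/F* count was 12 without replicate 1 and 9 without replicate 2. Median log2 differences of the list were −0.02 in *D/F* and −0.05 in *T/F*. There were 7 genes called above 2-fold in at least 1 genotype, 5 in *D/F* and 6 in *T/F*, where 7.28% and 7.33% of all genes were.

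Among the other transporters, 1 of 4 in the table was called in each genotype. With the mouse as a block *Slc44a5*, a choline-like transporter near 1 TPM, was called as well in *T/F* (log2 −0.39, adjusted p = 0.0463). The gene called in both was *Slc22a3*, an organic cation transporter, which stood at 10.8, 47.5 and 14.7 TPM with DMSO and 0.839, 1.69 and 0.721 TPM with CCS1477 in *D/F*, and at 11.7, 5.66 and 16.3 TPM against 1.15, 0.653 and 1.87 TPM in *T/F*. No CCS1477 library reached the lowest DMSO library, and it fell by 3.35 (SE 0.53, adjusted p = 0.0169) in *D/F* and by 2.39 (SE 0.39, adjusted p = 0.00490) in *T/F* on the log2 scale by limma.

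Of 12 genes of betaine use and the methionine cycle, 1 rose and 2 fell in *D/F*, where 11.6% of all genes passed, and 1 rose and 3 fell of 11 tested in *T/F*, where 43.4% did. With the mouse as a block 2 rose and 3 fell in *D/F*, and the *T/F* counts were again 1 and 3. *Slc6a12*, a transporter of betaine and GABA, was at 2.89, 4.42 and 2.06 TPM with DMSO and 0.129, 0.0788 and 0.0405 TPM with CCS1477 in *D/F*, and at 5.15, 2.93 and 6.77 TPM against 0.369, 0.590 and 1.32 TPM in *T/F*. Groups were apart in both genotypes, and it fell by 1.89 (SE 0.23, adjusted p = 0.00873) and 1.74 (SE 0.31, adjusted p = 0.00653) on the log2(TPM + 1) scale, which understates changes at such levels. *Mat2a*, the catalytic subunit that makes S-adenosylmethionine in most tissues, went from 212, 325 and 282 TPM to 100.1, 157 and 131 TPM in *D/F* cells and from 264, 233 and 297 TPM to 123, 115 and 128 TPM in *T/F*. It fell by 1.07 (SE 0.24, adjusted p = 0.0389) and 1.10 (SE 0.10, adjusted p = 0.000979). The betaine-homocysteine methyltransferase *Bhmt* and *Dmgdh*, the next enzymes of betaine use, are not in the table.

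In phosphatidylcholine turnover, 2 of 20 genes rose and 3 fell in *D/F*, and 6 rose and 5 fell in *T/F*. With the mouse as a block 6 rose and 4 fell in *D/F* and 9 rose and 6 fell in *T/F*, where 39.3% and 54.1% of all genes passed. *Gdpd5*, which splits glycerophosphocholine and so releases choline, rose from 0.391, 1.68 and 0.617 TPM to 3.71, 7.36 and 5.16 TPM in *D/F* cells and from 0.671, 1.18 and 2.097 TPM to 3.74, 4.14 and 5.04 TPM in *T/F*. The log2 differences were 1.78 (SE 0.32, adjusted p = 0.0233) and 1.23 (SE 0.24, adjusted p = 0.00859). The lysosomal phospholipase *Pla2g15* went from 25.3, 28.6 and 25.4 TPM to 14.1, 11.7 and 11.8 TPM in *D/F* cells and from 25.1, 30.4 and 28.3 TPM to 16.4, 18.4 and 14.3 TPM in *T/F*. It fell by 1.02 (SE 0.15, adjusted p = 0.0136) and 0.74 (SE 0.12, adjusted p = 0.00447).

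Sphingomyelin synthesis takes its head group from phosphatidylcholine, and of 8 genes of its synthesis and breakdown 0 were called in *D/F* by limma (4 at an unadjusted p under 0.05, and 5 called with the mouse as a block), while 2 rose and 2 fell in *T/F*, or 2 and 4 with the block. The sphingomyelin synthase *Sgms2* was at 82.4, 17.2 and 53.4 TPM with DMSO and 16.4, 6.97 and 11.7 TPM with CCS1477 in *D/F*, and at 43.9, 49.2 and 24.8 TPM against 12.7, 10.7 and 7.62 TPM in *T/F*. It was lowest in *D/F* replicate 2 and *T/F* replicate 3, the mice with the fewest neutrophil transcripts. It fell in *T/F* (log2 −1.80, SE 0.30, adjusted p = 0.00526), and the *D/F* difference of −1.85 (SE 0.59) gave an adjusted p of 0.0911, or 0.0105 once the mouse was a block. *Smpdl3b*, a sphingomyelinase-like phosphodiesterase of the cell surface, went from 3.07, 3.57 and 4.47 TPM to 0.560, 0.943 and 1.26 TPM in *T/F*, a fall by 1.30 (SE 0.17, adjusted p = 0.00255). In *D/F* its values were 1.24, 1.76 and 3.29 TPM against 0.493, 0.443 and 0.550 TPM (−0.996, SE 0.25, adjusted p = 0.0534, or 0.0234 with the block).

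The list of the phosphatidylethanolamine and phosphatidylserine branch had 8 genes in the table, including the methyltransferase *Pemt*. It also held *Pcyt1b*, which encodes a second form of the choline enzyme of *Pcyt1a*. Of the 8, 0 were called in *D/F* by limma (1 at an unadjusted p under 0.05, and 1 called with the mouse as a block). In *T/F* 1 rose and 1 fell, or 1 and 3 with the block. The 1 that fell by limma was *Pcyt1b*, from a mean of 1.99 to 1.45 TPM (log2 −0.29, adjusted p = 0.0149). In *D/F* cells *Pcyt1b* was not called (log2 −0.60, adjusted p = 0.451, and 0.158 with the block). *Ache*, the acetylcholinesterase, was the 1 gene of the acetylcholine list in the table and was not called in either genotype.

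**Figure D4:**
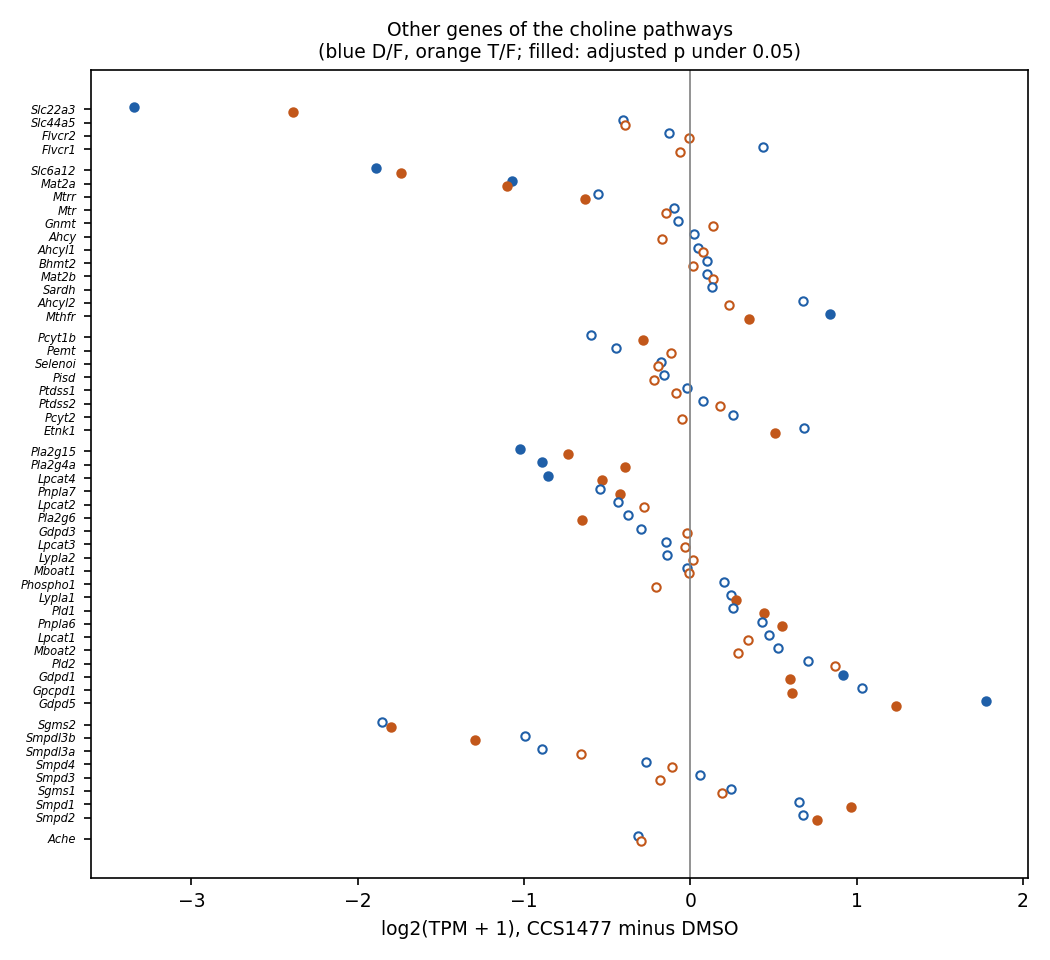
Change with CCS1477 on the log2(TPM + 1) scale for the 53 other pathway genes, with *D/F* in blue, *T/F* in orange and filled points for an adjusted p under 0.05. The groups from top to bottom are transport, betaine and methionine cycle, phosphatidylethanolamine branch with *Pcyt1b*, phosphatidylcholine turnover, sphingomyelin and acetylcholine. *Slc22a3* lies farthest to the left, at −3.35 and −2.39, and *Gdpd5* farthest to the right, at 1.78 and 1.23.

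The drug targets themselves were measured beside these genes. *Ep300*, which encodes p300, stood at 53.5 to 61.8 TPM with DMSO and 94.4 to 97.6 TPM with CCS1477 in *D/F*, and at 57.9 to 64.2 TPM against 104 to 112 TPM in *T/F*. *Crebbp*, which encodes CBP, went from 46.9 to 61.6 TPM up to 78.2 to 112 TPM in *D/F* cells and from 49.0 to 51.1 TPM up to 86.7 to 91.4 TPM in *T/F*. Over both genotypes *Ep300* rose by 0.75 on the log2 scale by limma (SE 0.07, adjusted p = 8.32e-06). *Crebbp* rose by 0.79 (SE 0.10, adjusted p = 7.54e-05), where 45.3% of all genes passed. In *D/F* alone limma called *Ep300* (adjusted p = 0.0294) but not *Crebbp* (0.0562, or 0.00864 with the mouse as a block). Both were called by limma in *T/F* (adjusted p = 0.00084 and 0.00051).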

How the data were processed

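The authors deposited 1 table of gene-level TPM for 12 libraries and 15651 Ensembl identifiers (15252 with a symbol), without pooling. The submitters' processing notes name kallisto and mm10, and the paper's methods name AltAnalyze. The annotation version and strand setting are not given in the sources used here, and the labels mention ribosome depletion as well as an mRNA kit. Every gene reached 2.00 TPM in at least 1 library. TPM keeps no read number, so depth is unknown and precision is the spread between 3 mice.

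The members and the gene lists were chosen with earlier results of these data known. On log2(TPM + 1), limma (version 3.58.1, R 4.3.3) gave two-sided p-values, with eBayes without a trend and Benjamini-Hochberg adjustment over all genes whose mean reached 1 TPM in 1 or more of the groups compared. A call is an adjusted p under 0.05. An exact permutation test of 3 libraries against 3 cannot go below p = 0.1 and was not used. The main fit of each comparison was first checked on simulated data. These data had no differences between mice, and their planted changes were larger than those of the members other than *Chdh*. The block fit and the shared fit were not checked in this way.

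By the labels, cells with 1 replicate number came from 1 mouse, and residuals of the same mouse correlated at 0.354 to 0.669 against at most 0.141 between mice, so the numbers pair the libraries. The block fit is given beside results it changes. Named were all members, other pathway genes called above 2-fold, the 10 genes most like *Chdh* by Pearson r, and the targeted genes. Positions are from GENCODE vM21. Alternatives were other pseudocounts, filters and scalings, a trended prior, a shared fit, the mouse block, a genotype comparison within CCS1477 samples, and omission of each mouse in turn. One of the marker lists examined is not reported here.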

Additional observations from a re-analysis of the deposited data

Results flagged for a closer look

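Of 62 choline genes examined, 1 moved in opposite directions in every mouse of the 2 genotypes. The share of all genes that do so was not computed, so the count is only a description. *Flvcr1*, a transporter of choline and heme, was at 13.1, 14.0 and 17.3 TPM with DMSO and 19.1, 22.7 and 19.1 TPM with CCS1477 in *D/F*, and at 15.12, 15.5 and 16.7 TPM against 15.09, 14.7 and 15.4 TPM in *T/F*. Libraries are given here from replicate 1 to replicate 3. The 2 values of *T/F* replicate 1 were nearly equal, so its direction carries little weight. By limma *Flvcr1* was not called in *D/F* (log2 0.43, adjusted p = 0.144, and 0.0665 with the mouse as a block). Nor was it called in *T/F* (log2 −0.06, adjusted p = 0.477, and 0.365 with the block). The difference between the responses, *T/F* minus *D/F*, was −0.50 on the log2(TPM + 1) scale (SE 0.17) and did not pass over all genes by limma (adjusted p = 1.00, and 0.251 with the mouse as a block). Groups of 3 are too small for a test of single libraries that lie far from the others.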

How the results depend on the processing

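For the 8 members other than *Chdh*, the number called in *D/F* was 2, and it was 1 with a pseudocount of 0.01, 4 in a shared fit of all 12 libraries and 5 once the mouse was a block. The 9 other pathway genes called in *D/F* became 18 in the shared fit and 22 with that block, where the share of all genes called went from 11.6% to 31.9% and 39.3%. In *T/F* the 6 members called became 2 in the shared fit, and the block changed no call of a member there or over both genotypes. Leaving out each mouse gave 0 to 4 members and 0 to 16 other pathway genes in *D/F*, 3 to 4 members and 9 to 17 other pathway genes in *T/F*, 4 to 6 members over both genotypes, and 0 to 0 in the test of the responses and in the genotype comparison. Other filters, quantile normalization, a trended prior and a pseudocount of 0.1 left these counts within 1.5 times. Rescaling to a common median also called *Pcyt1a* over both genotypes (log2 −0.20, adjusted p = 0.0402).

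Signs turned for differences that were not called in any setting where they turned. These were *Cept1* in *D/F* (−0.037 with median rescaling, and −0.15 to 0.17 on leaving out a mouse) and *Pcyt1a* in *T/F* (−0.088 to 0.042). In the test of the responses they were *Slc44a1* (−0.24 to 0.15) and *Cept1* (−0.29 to 0.034) on leaving out a mouse. Between genotypes they were *Slc44a1* (−0.63 to 0.21), *Chka* (−0.0074 to 0.37) and *Chkb* (−0.13 to 0.27) on leaving out a mouse, and with CCS1477 in place of DMSO libraries *Chpt1* (0.27) and *Cept1* (0.0076). The fall of *Chdh* was −5.72 for *D/F* and −4.86 for *T/F* with a pseudocount of 0.1, and ran from −4.53 to −4.36 and from −3.83 to −3.50 on leaving out a mouse. The cause of these shifts was not tested. Depth is unknown, so counting error at levels below 1 TPM could not be given.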
